A study of Mus musculus with 12 samples.

Results

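The 9 genes described here encode the HSP70 chaperones Hspa2, Hspa1l, Hspa1a, Hspa1b and Hspa8, their HSP110 relatives Hspa4l and Hsph1, the J-domain partner Dnajb1, and the HSP90 chaperone Hsp90aa1. They were taken by symbol from a table of 20718 genes measured by RNA sequencing of mouse testis, and each symbol matched 1 entry. All 9 also passed the filter on low counts, which left 16320 genes for testing. HSP70 proteins bind exposed hydrophobic stretches of unfolded proteins and release them in cycles driven by ATP. J-domain proteins such as Dnajb1 deliver clients to HSP70 and stimulate its ATP hydrolysis, HSP110 proteins exchange the bound nucleotide, and HSP90 receives partly folded clients from HSP70. Mammalian testis carries its own forms beside the heat-inducible and the constitutive ones: in the mouse, Hspa2 is made in meiotic spermatocytes and is required for male meiosis, and Hspa1l is made after meiosis in spermatids.

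The 12 libraries fell into 4 groups of 3. In OV testes a virus was used to raise the long noncoding RNA lncRNA8276, and these were compared with 5NC testes. In KD testes a virus was used to inhibit lncRNA8276, and these were compared with 3NC testes. What 5NC and 3NC stand for is not said in the labels. They were treated as control groups, and OV and KD were also each set against the other one. All groups are total RNA of whole testes from F0 mice of a strain written as "IRC mouse". Neither the age, nor the promoter of the virus, nor the cells it reached are given. It is also not said whether each sample is a separate animal, so a p-value here measures only how far these samples spread, which may be technical. No symbol in the table names lncRNA8276, and its own level was not analysed here.

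Library totals lay between 15448442 and 16355720 estimated reads, and markers of every testis germ cell stage and somatic cell type on the lists had reads, with 0 markers of these lists at 0 in all 12 libraries. OV replicate 3 and 3NC replicate 2 stood apart from the other 10 libraries in how levels followed base composition. In both, the deviation of a gene from its median over the other 10 libraries, in log2 CPM, ran opposite to the GC content of its longest coding transcript. For each of those 10, the median was taken over the rest of them. Across 15711 genes, Pearson's r was −0.547 in OV replicate 3 and −0.552 in 3NC replicate 2, against −0.094 to 0.111 in the others. Genes are not independent replicates, and these values describe the libraries. Because 1 of these libraries is in OV and the other is in 3NC, results that rest on them are given below with and without them. On the first principal component of log2 CPM (19.1% of the variance), OV replicate 1 lay level with these libraries. It was at 30.2, beside 30.3 for OV replicate 3 and 29.0 for 3NC replicate 2. OV replicate 2 was at 10.3, and the rest ran from −16.1 to −5.16. Below, OV replicate 1 is counted among the other 10 libraries. In whole testis, fewer cells of a type and less RNA per cell cannot be told apart.

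Hsp90aa1 and the testis-enriched forms dominated the set. Levels between genes are given in FPKM, reads per kilobase of gene, scaled to a common library total. Hsp90aa1, the inducible cytosolic HSP90 form that mouse spermatocytes also need to complete meiosis, had a median level of 833 FPKM over the 12 libraries, with a range of 799 to 1147 FPKM. Only 51 genes of the table had a higher median. Hspa2 followed with a median of 441 FPKM (398 to 462), and it was below Hsp90aa1 in all 12 libraries. Hspa1l had a median of 354 FPKM (309 to 376) and Hspa4l, the HSP110 form abundant in testis, one of 323 FPKM (293 to 392). The ranges of Hspa1l and Hspa4l overlapped, with Hspa1l above Hspa4l in 10 of 12 libraries. Hspa8, the constitutive HSP70 of most cells, had a median of 132 FPKM (115 to 168). The heat-inducible partner Dnajb1 had 107 FPKM (92.5 to 117), and Hspa8 was above it in 11 of 12 libraries, with overlapping ranges.

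Hsph1 and the inducible HSP70 pair lay far lower. Hsph1, the inducible HSP110, had a median level of 17.4 FPKM (16.8 to 19.7). Hspa1b had 4.01 FPKM (2.44 to 4.76), and Hspa1a had 0.855 FPKM (0.57 to 1.23), the lowest level of the set in every library. Of the summed FPKM of the 5 HSP70 genes, Hspa2 and Hspa1l together made up 80.7% to 87.0%, Hspa8 12.4% to 18.9%, and the inducible pair Hspa1a and Hspa1b 0.356% to 0.584%. The level of Hspa2 alone was 92.8 times the sum of the inducible pair at the median library, with a range of 80.9 to 129.6 times. The inducible pair rested on few reads, with 105 to 197 reads a library for Hspa1b and 24.6 to 50.4 for Hspa1a, against 15466 to 17536 reads for Hspa2.

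**Figure D1:**
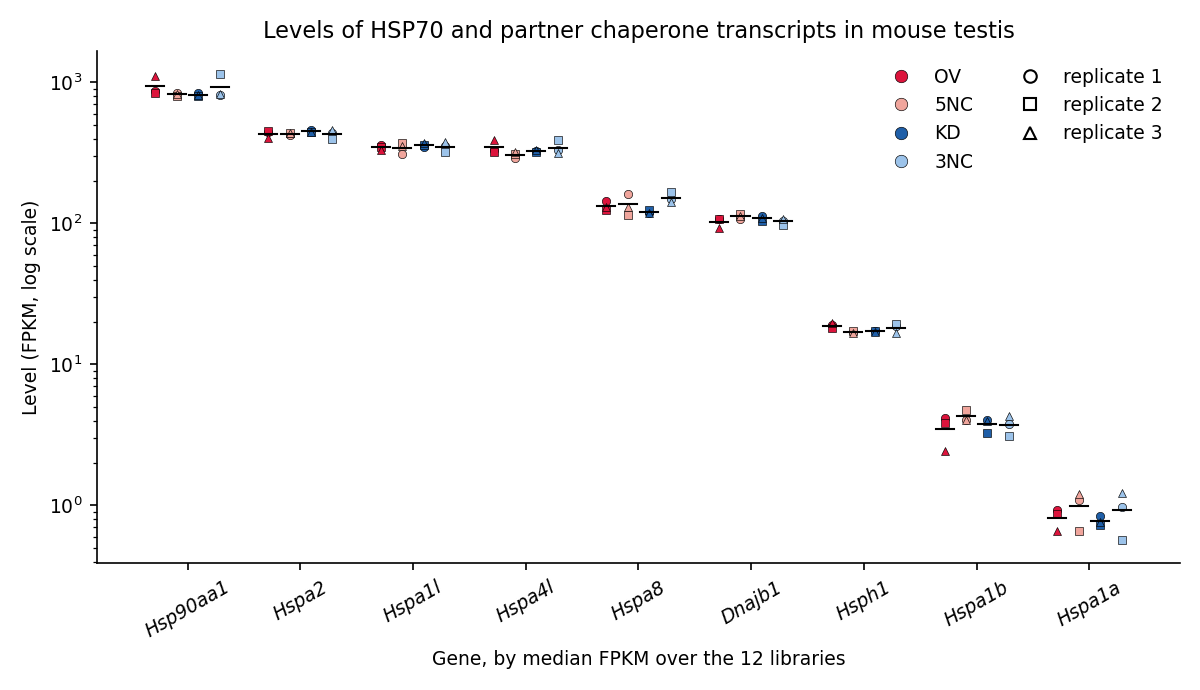
Level in FPKM (log scale) of the 9 chaperone genes in each of the 12 testis libraries, ordered by median. Points are libraries, shapes are replicate numbers, colours are groups and bars are group means of 3 libraries. Hsp90aa1 lies near 833 FPKM and Hspa1a near 0.855 FPKM, and the order from Hsp90aa1 down changes only between Hspa1l and Hspa4l and between Hspa8 and Dnajb1.

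Hspa1b, Hspa1a and Hspa1l lie side by side on chromosome 17 within the major histocompatibility region. In GRCm38.p6, the build that corresponds to mm10, Hspa1b spans chr17:34956429-34959238 and Hspa1a spans chr17:34969359-34972156, both on the minus strand with 10120 bases between them. Hspa1l lies at chr17:34972703-34979228 on the plus strand, 546 bases from Hspa1a, so their start sites face away from each other. Hspa1a and Hspa1b have a single exon each. Their coding sequences, 1923 and 1926 bases long, were identical at 1915 of 1926 aligned positions (99.4%), with a longest identical run of 638 bases. The split of reads between Hspa1a and Hspa1b is therefore uncertain, and their sum is given beside each of them. Hspa1l shared 82.9% of coding positions with Hspa1a, with a longest identical run of 233 bases, while Hspa2 shared 78.2% with Hspa1a in runs of at most 32 bases. Hspa1l and Hspa1a also overlap the predicted genes Gm10501 and Gm20481 on the opposite strand, and whether the counting used strand is not given.

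The promoters of the inducible pair and of the testis forms are printed because the levels of these genes differ most within the HSP70 family. Promoters are RefSeq sequences of GRCm38.p6, from 250 bases before to 50 bases after an annotated start, read 5′ to 3′ on the strand of the gene. That start is not always the outer end of the gene span. The Hspa2 window lies inside the Hspa2 span, which begins at 76403812. The Hspa4l window begins at 40745363, inside a span from 40744500. Bases before the outer ends of these spans were not searched. Capitals mark GAANNTTC or TTCNNGAA, the paired core of the heat shock element, to which heat shock factors bind. Each motif reads the same on both strands, and 4917 of 32544 promoters of this length (15.1%) hold at least 1 of them.
Hspa1a, chr17:34972107-34972406, minus strand: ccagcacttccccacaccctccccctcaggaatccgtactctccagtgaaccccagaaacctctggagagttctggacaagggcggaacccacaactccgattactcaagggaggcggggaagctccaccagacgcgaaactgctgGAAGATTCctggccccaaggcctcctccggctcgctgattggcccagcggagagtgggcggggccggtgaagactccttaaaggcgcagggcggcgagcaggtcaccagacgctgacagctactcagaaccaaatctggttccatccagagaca
Hspa1b, chr17:34959189-34959488, minus strand: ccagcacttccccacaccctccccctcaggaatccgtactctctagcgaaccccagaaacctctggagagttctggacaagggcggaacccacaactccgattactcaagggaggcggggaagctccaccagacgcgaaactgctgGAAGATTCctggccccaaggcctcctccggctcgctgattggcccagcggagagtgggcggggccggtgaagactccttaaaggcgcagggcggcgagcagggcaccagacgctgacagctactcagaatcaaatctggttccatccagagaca
Hspa1l, chr17:34972453-34972752, plus strand: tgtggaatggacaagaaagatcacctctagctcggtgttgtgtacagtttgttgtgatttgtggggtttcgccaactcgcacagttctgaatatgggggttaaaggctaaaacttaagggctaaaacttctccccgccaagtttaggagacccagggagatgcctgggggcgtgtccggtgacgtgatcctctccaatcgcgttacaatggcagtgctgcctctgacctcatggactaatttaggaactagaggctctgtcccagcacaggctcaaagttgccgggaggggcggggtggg
Hspa2, chr12:76404120-76404419, plus strand: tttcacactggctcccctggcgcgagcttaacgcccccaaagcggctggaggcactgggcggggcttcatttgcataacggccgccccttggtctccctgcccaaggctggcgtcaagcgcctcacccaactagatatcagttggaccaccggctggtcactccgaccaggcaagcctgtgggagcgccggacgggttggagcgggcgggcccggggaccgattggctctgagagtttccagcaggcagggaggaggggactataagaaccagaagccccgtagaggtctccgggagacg

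The Hspa1a and Hspa1b windows were identical at 296 of 300 bases. Counted from 1 at the 5′ end, with the base of Hspa1a first, they differed by C44T, T47C, T249G and C276T. Both held 1 GAANNTTC at bases 147 to 154, which lies outside all 4 differences. Neither motif occurred in the Hspa1l or Hspa2 windows, nor in those of Hspa4l and Dnajb1. The Hsph1 window held 3 matches: TTCNNGAA at bases 197 to 204 and 266 to 273 and GAANNTTC at bases 271 to 278, the last pair sharing letters. The first match begins 54 bases before the annotated start, and the last pair begin 15 and 20 bases after it. That start lies inside the Hsph1 span, whose outer end is at 149636498. A second annotated window of Hsph1, chr5:149636287-149636586, overlaps the first window and holds the same 3 matches, at bases 218 to 225, 287 to 294 and 292 to 299. The first window is printed because Hsph1 is the remaining gene of the set with a match.
Hsph1, chr5:149636266-149636565, minus strand: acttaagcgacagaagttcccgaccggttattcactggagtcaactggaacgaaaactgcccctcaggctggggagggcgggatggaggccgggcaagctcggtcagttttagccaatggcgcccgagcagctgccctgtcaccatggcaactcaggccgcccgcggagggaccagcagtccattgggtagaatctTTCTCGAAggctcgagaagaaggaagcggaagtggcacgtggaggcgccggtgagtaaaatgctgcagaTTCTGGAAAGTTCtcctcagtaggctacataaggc
Of the 9 genes, 7 had a promoter in the sequence table used. A match is only a stretch of letters, and none of these libraries measured binding at it. The near-identical windows went with unequal levels. Hspa1b had 4.44 times the FPKM of Hspa1a at the median library, with a range of 3.35 to 7.21 times, a ratio that depends on how the counting split reads between them.

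No member of the set passed the test in any comparison. With edgeR's quasi-likelihood test and Benjamini-Hochberg adjustment over all genes tested, 0 of 9 genes were called for OV against 5NC, where 0% of all 16320 genes were called (smallest adjusted p = 0.239). With the replicate number as a block in a fit of OV and 5NC alone, 215 of all genes and 0 of 9 members were called. For KD against 3NC, 0 of 9 were called, against 0.178% of all genes (29 genes). Between the controls, 5NC against 3NC, 0 of 9 were called, against 0.362% of all genes (59 genes). For the OV effect minus the KD effect, 0 of 9 were called, against 0.0613% of all genes (10 genes). At an unadjusted p under 0.05, the members numbered 0 for OV against 5NC (10.4% of all genes), 1 for KD against 3NC (6.00%), 0 for 5NC against 3NC (12.1%) and 3 for the difference of effects (15.7%). The same count of 0 of 9 members was found under every one of the 111 combinations of comparison and setting that were run, DESeq2 included.

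The 95% intervals show what size of change the libraries could have held. For OV against 5NC, the interval of Hspa2 was 0.90- to 1.14-fold and that of Hspa1l 0.89- to 1.17-fold. For KD against 3NC, they were 0.93- to 1.18-fold for Hspa2 and 0.90- to 1.19-fold for Hspa1l. The interval was widest for Hspa1a, at 0.55- to 1.29-fold for OV against 5NC, where reads were fewest. These limits are not thresholds of detection, since a call needed an adjusted p under 0.05 over all 16320 genes tested.

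**Figure D2:**
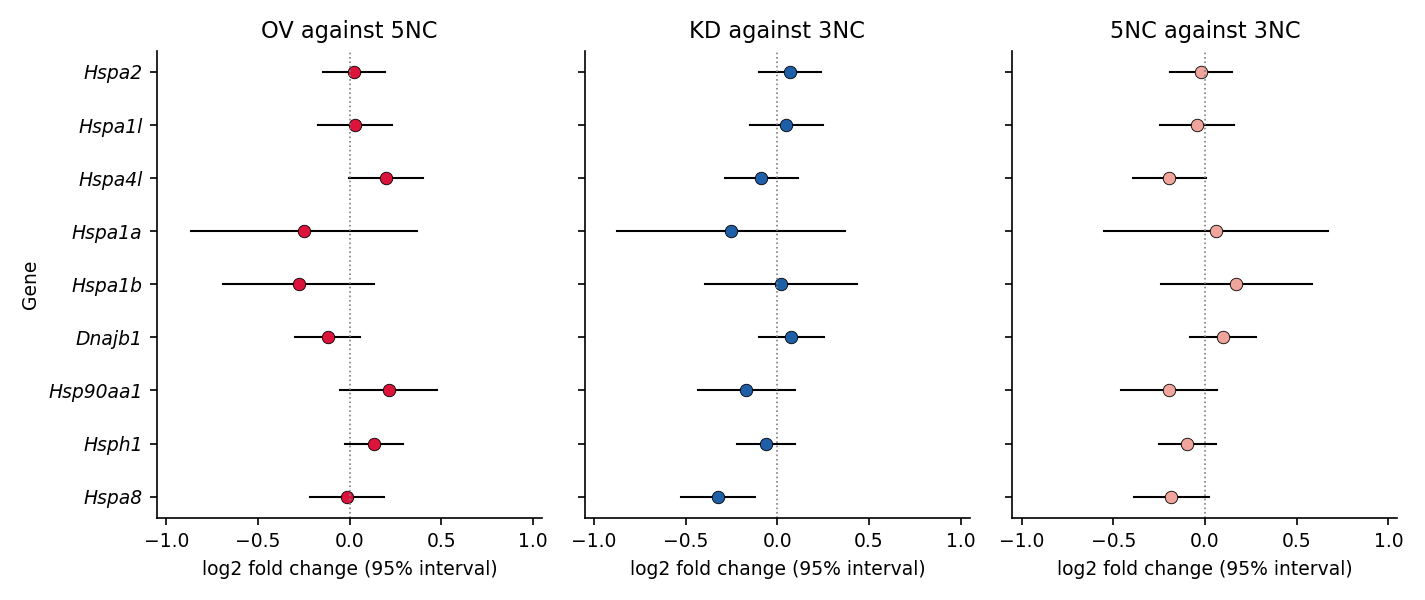
Log2 fold change with its 95% interval (edgeR, 3 libraries a group) of the 9 chaperone genes for OV against 5NC, KD against 3NC and 5NC against 3NC. The intervals cross 0 for every gene except Hspa8 in KD against 3NC, whose point lies at −0.33.

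The testis HSP70 forms were even across the groups. Hspa2, on chromosome 12 (chr12:76403812-76406938, plus strand, 2 exons), had 1063.5, 1097 and 959 CPM (counts scaled to a common library total) in OV testes, against 1015.5, 1055 and 1047 CPM in 5NC testes. It had 1109.9, 1067 and 1070.3 CPM in KD testes, against 1049.8, 950.0 and 1101.5 CPM in 3NC testes. OV overlapped 5NC and KD overlapped 3NC, and the lowest values were those of OV replicate 3 and 3NC replicate 2. The log2 fold change of Hspa2 was 0.02 ± 0.08 (SE) for OV against 5NC (adjusted p = 0.929) and 0.07 ± 0.08 for KD against 3NC (adjusted p = 0.829).

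Hspa1l had 819.6, 799 and 759 CPM in OV testes, against 707, 846 and 809 CPM in 5NC testes. It had 797, 817 and 858 CPM in KD testes, against 811, 724 and 858 CPM in 3NC testes. The groups overlapped, with 5NC replicate 1 lowest and 3NC replicate 2 next. The log2 fold change of Hspa1l was 0.03 ± 0.09 for OV against 5NC and 0.05 ± 0.09 for KD against 3NC (adjusted p = 0.92 and 0.895). The ratio of Hspa2 to Hspa1l in FPKM lay between 1.19 and 1.37 over the 12 libraries.

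**Figure D3:**
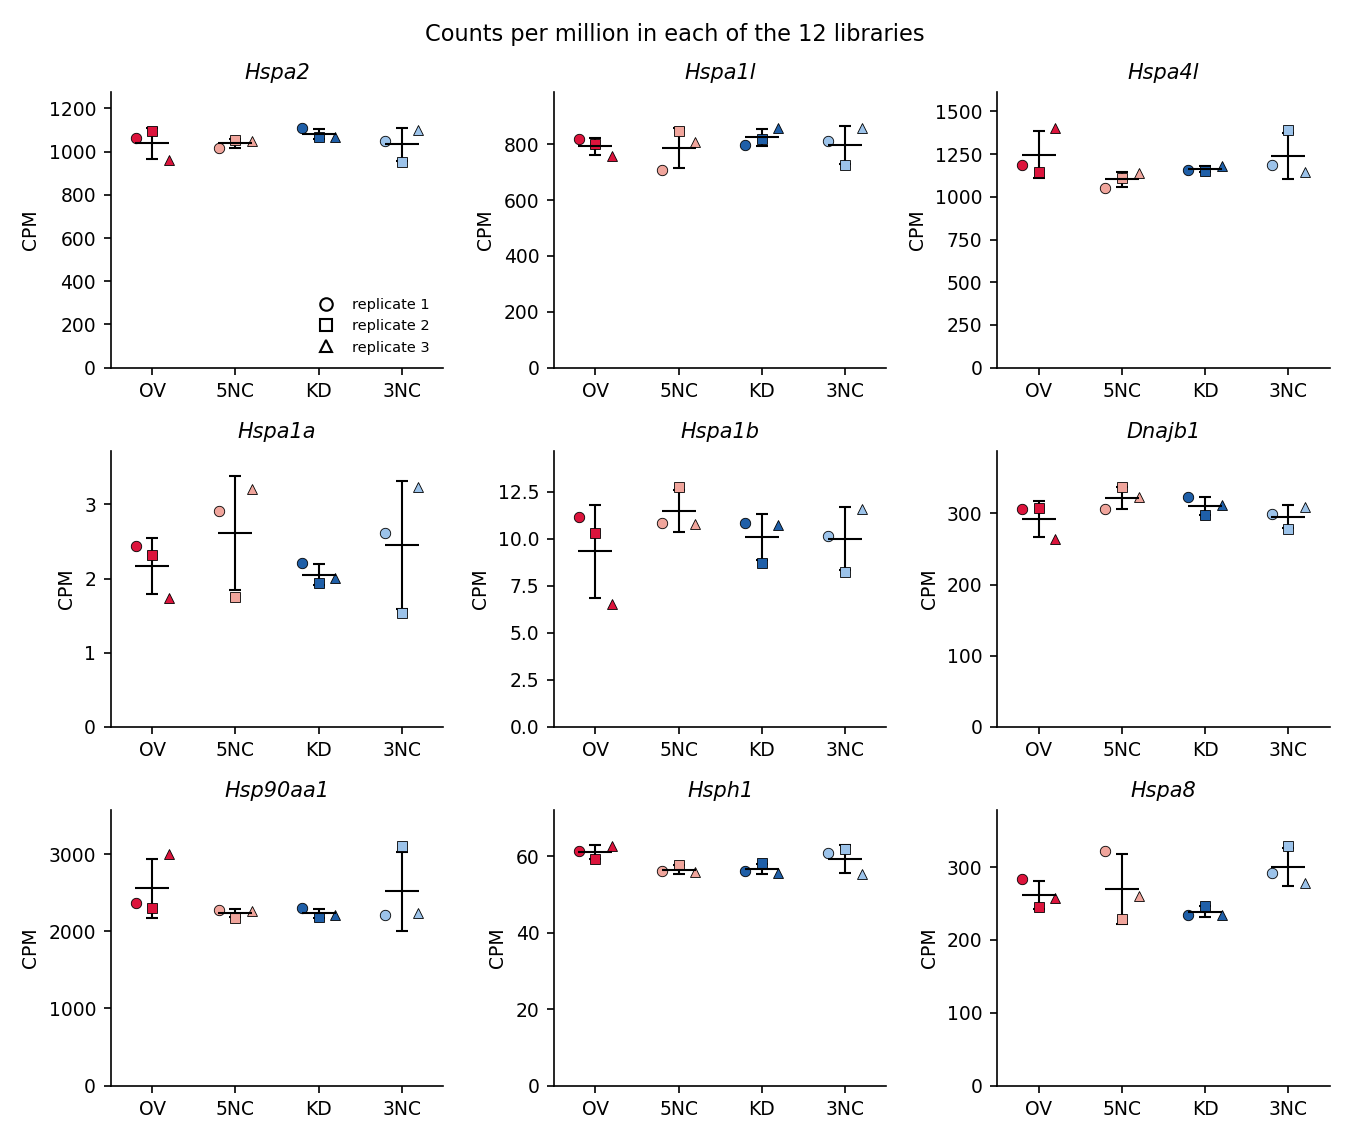
CPM, counts scaled to a common library total, for each of the 9 chaperone genes (panels, linear axes from 0) in the OV, 5NC, KD and 3NC libraries. Bars are group means and whiskers are SD of 3 libraries. OV replicate 3 (triangle) and 3NC replicate 2 (square) are the highest for Hsp90aa1, at 2999.7 and 3104 CPM, and the lowest for Hspa1b, at 6.51 and 8.25 CPM.

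The inducible pair had low counts and wide spread. Hspa1a, whose transcription is switched on by heat shock factor in stressed cells, had 2.45, 2.32 and 1.74 CPM in OV testes, against 2.91, 1.75 and 3.20 CPM in 5NC testes. It had 2.22, 1.93 and 2.01 CPM in KD testes, against 2.61, 1.53 and 3.24 CPM in 3NC testes. The groups overlapped, and the highest 3NC level in FPKM was 2.16 times the lowest. Hspa1a had a log2 fold change of −0.25 ± 0.29 for OV against 5NC (adjusted p = 0.741) and −0.25 ± 0.29 for KD against 3NC (adjusted p = 0.829). Single libraries decided the size of both. For OV against 5NC, Hspa1a was at −0.461 without 5NC replicate 2 and at −0.0654 without 5NC replicate 3. For KD against 3NC, it was at −0.511 without 3NC replicate 2 and at −0.00012 without 3NC replicate 3.

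Hspa1b, its near-identical copy, had 11.1, 10.3 and 6.51 CPM in OV testes, against 10.8, 12.8 and 10.8 CPM in 5NC testes. It had 10.8, 8.71 and 10.7 CPM in KD testes, against 10.1, 8.25 and 11.6 CPM in 3NC testes. The value of OV replicate 3 was the lowest of all libraries, and the groups overlapped. Summing Hspa1a and Hspa1b removes only the split of reads between them. Hspa1l also had fractional estimated reads (12736.42 in OV replicate 1), and the part of reads shared with Hspa1l was not tested. The sum was 13.6, 12.7 and 8.25 CPM in OV testes, against 13.8, 14.6 and 14.0 CPM in 5NC testes. All 3 OV values lay under the lowest 5NC value, where 15.3% of all genes had non-overlapping groups. This sum had a log2 fold change of −0.27 ± 0.19 (adjusted p = 0.59), and it was −0.09 without OV replicate 3 and 3NC replicate 2. For KD against 3NC, the sum had a log2 fold change of −0.03 ± 0.19 (adjusted p = 0.97).

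The inducible partners Dnajb1 and Hsph1 had opposite signs for OV against 5NC, and neither passed the test. Dnajb1, on chromosome 8 (chr8:83608175-83612653, plus strand, 3 exons), had 306, 308 and 264 CPM in OV testes, against 306, 337 and 323 CPM in 5NC testes. It had 323, 298 and 312 CPM in KD testes, against 299.6, 278 and 309.6 CPM in 3NC testes. The lowest values were again those of OV replicate 3 and 3NC replicate 2. Dnajb1 had a log2 fold change of −0.12 ± 0.08 for OV against 5NC (adjusted p = 0.59) and of 0.08 ± 0.08 for KD against 3NC (adjusted p = 0.825). Without OV replicate 3 the value for OV against 5NC was −0.0562.

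Hsph1, the inducible HSP110, lies at chr5:149616843-149636498 on the minus strand and has 19 exons. It had 61.4, 59.1 and 62.7 CPM in OV testes, against 56.0, 57.7 and 55.8 CPM in 5NC testes. It had 56.1, 58.2 and 55.5 CPM in KD testes, against 60.7, 61.9 and 55.2 CPM in 3NC testes. The OV libraries were all above the 5NC libraries, and KD overlapped 3NC. Hsph1 had a log2 fold change of 0.13 ± 0.07 for OV against 5NC (adjusted p = 0.519) and of −0.06 ± 0.07 for KD against 3NC (adjusted p = 0.831).

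Hspa4l, the HSP110 form abundant in germ cells, lies at chr3:40744500-40796103 on the plus strand and has 19 exons. It had 1189, 1146 and 1403 CPM in OV testes, against 1054, 1111 and 1141 CPM in 5NC testes. It had 1159, 1149 and 1179.7 CPM in KD testes, against 1183, 1390.1 and 1144 CPM in 3NC testes. OV did not overlap 5NC and 5NC did not overlap 3NC, but the 2 highest values were those of OV replicate 3 and 3NC replicate 2. For Hspa4l the log2 fold change was 0.20 ± 0.09 for OV against 5NC (adjusted p = 0.482) and −0.19 ± 0.09 for 5NC against 3NC (adjusted p = 0.418). These comparisons share the 5NC libraries. Without those 2 libraries the values were 0.09 and −0.11. For KD against 3NC the log2 fold change was −0.09 ± 0.09 with them and −0.0035 without them. The OV effect minus the KD effect on Hspa4l was 0.28 ± 0.13 (adjusted p = 0.316), and it changed sign under a correction for transcript GC content (−0.0278).

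Hsp90aa1 lies at chr12:110691036-110696395 on the minus strand and has 11 exons. It had 2367, 2295 and 2999.7 CPM in OV testes, against 2274, 2177 and 2264 CPM in 5NC testes. It had 2301, 2179 and 2209 CPM in KD testes, against 2212, 3104 and 2237 CPM in 3NC testes. The other 10 libraries stayed between 2177 and 2367 CPM, so OV replicate 3 was at 1.33 times and 3NC replicate 2 at 1.38 times their median. The log2 fold change was 0.21 ± 0.12 for OV against 5NC (adjusted p = 0.533) and −0.17 ± 0.12 for KD against 3NC (adjusted p = 0.764). Without the 2 libraries it was 0.07 and 0.0012. The OV effect minus the KD effect was 0.38 ± 0.17 on the log2 scale (adjusted p = 0.314), and 0.07 without them.

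Of the 9 members, 3 had OV libraries all above the 5NC libraries (Hspa4l, Hsph1 and Hsp90aa1), 0 had them all below, and 6 overlapped. Over all genes tested, 15.3% had non-overlapping groups in either direction. Markers of several cell types had mostly 1 sign for OV against 5NC, and 0 of them were called. Of 11 Leydig cell markers tested, 11 had a negative log2 fold change, and their summed level was 1473 to 2299 CPM in OV testes and 1997 to 3585 CPM in 5NC testes. Of 14 Sertoli cell markers, 12 had a negative value, with sums of 982 to 1148 CPM in OV testes and 1169 to 1836 CPM in 5NC testes. Of 11 tested markers of macrophages and other leukocytes, 10 had a positive value, with sums of 91.5 to 214 CPM in OV testes and 65.3 to 108 CPM in 5NC testes. Of 12 peritubular and stromal markers, 8 had a negative value, with sums of 201 to 295 CPM in OV testes and 217 to 320 CPM in 5NC testes. Of 10 endothelial cell markers, 5 had a positive and 5 a negative value. Among germ cell markers, 11 of 14 for pachytene spermatocytes had a positive value (median 0.062). Of 9 tested for spermatogonia, 7 had a negative value (median −0.207). Round spermatid markers had 7 of each sign, and 11 of 16 elongating spermatid markers had a negative value. The highest Leydig and Sertoli sums were both those of 5NC replicate 1, and the highest leukocyte sum was that of OV replicate 1. Markers of epididymis and fat, tissues that lie against the testis, summed to 13.6, 31.2 and 15.4 CPM in OV testes, against 29.0, 138.2 and 137.3 CPM in 5NC testes. Of the 6 tested, 5 had a negative log2 fold change and 0 were called for OV against 5NC, with a median of −2.16. The part of cell composition or of adjoining tissue in the values of the 3 chaperones was not tested.

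Hspa8 had the smallest p of the set under knockdown. The gene (chr9:40801276-40805202, plus strand, 9 exons) holds the small nucleolar RNAs Snord14c, Snord14d and Snord14e on its own strand. It had 235, 247 and 234 CPM in KD testes, against 292, 329 and 278 CPM in 3NC testes. All 3 KD values were below all 3 3NC values, and Hspa8 was the 1 member of 9 whose groups did not overlap in this comparison, where 16.4% of all genes did not. The level in KD was 0.80 of that in 3NC (95% interval 0.69 to 0.92), a log2 fold change of −0.33 ± 0.09. The unadjusted p was 0.00396 and the adjusted p 0.471, so the difference failed the correction over all genes. It was −0.26 without OV replicate 3 and 3NC replicate 2 and −0.14 against 5NC in place of 3NC.

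In OV testes Hspa8 had 283, 246 and 258 CPM, against 322, 228 and 260.4 CPM in 5NC testes, with overlapping groups. The log2 fold change was −0.02 ± 0.09 for OV against 5NC (adjusted p = 0.954) and −0.18 ± 0.09 for 5NC against 3NC (adjusted p = 0.438), the last at −0.0873 without 5NC replicate 2. The OV effect minus the KD effect was 0.31 ± 0.13 (adjusted p = 0.3), a contrast in which 15.7% of all genes had an unadjusted p under 0.05. Beside the Hspa8 values, 14 of 16 elongating spermatid markers had a positive log2 fold change for KD against 3NC, and 0 were called. Their sums were 30008 to 32469 CPM in KD testes and 26054 to 31204 CPM in 3NC testes. The lowest of these was 3NC replicate 2, and the others were at 29661 and 31204 CPM, so the groups overlapped with it and without it. Of 22 immediate early genes, which cells switch on within minutes of a stimulus, 4 were called lower in KD than in 3NC and 0 higher. Of 10 endothelial cell markers, 10 had a positive log2 fold change for KD against 3NC, with a median of 0.334, and 0 were called. Their sums were 65.1 to 71.4 CPM in KD testes and 53.1 to 56.3 CPM in 3NC testes, without overlap. The part of any of these lists in the Hspa8 values was not tested.

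Between the control groups, 1 of 9 members did not overlap (Hspa4l, lower in 5NC), where 16.6% of all genes did not. Log2 fold changes of the members for 5NC against 3NC ran between −0.20 for Hsp90aa1 and 0.17 for Hspa1b, with a median of −0.04 beside 0.01 for all genes tested. Without 3NC replicate 2 both ends moved towards 0, to −0.0202 for Hsp90aa1 and 0.0498 for Hspa1b. In the same comparison 13 of 22 immediate early genes were called lower in 5NC and 0 higher, with a median log2 fold change of −1.54. The epididymis and fat markers were higher in 5NC replicates 2 and 3 than in any 3NC library, whose sums were 17.2 to 22.2 CPM. Of the 6 tested, 2 were called higher in 5NC than in 3NC: Spink8 at 3.79 ± 0.63 and Plin1, the lipid droplet protein perilipin, at 1.47 ± 0.27 (adjusted p = 0.0333 for each). Of 14 Sertoli cell markers, 14 had a positive log2 fold change for 5NC against 3NC, with a median of 0.302, and 0 were called. Their sums overlapped, at 1169 to 1836 CPM in 5NC testes and 898 to 1180 CPM in 3NC testes. Of 10 endothelial cell markers, 9 had a positive and 1 a negative value, with a median of 0.168, and 0 were called. The part of any of these lists in the members' values was not tested.

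The positions of OV replicate 3 and 3NC replicate 2 followed the base composition of the transcripts for most members. Transcript GC was 39.5% for Hspa4l, 43.7% for Hsp90aa1, 47.4% for Hsph1 and 51.2% for Hspa8. It was 52.7% for Dnajb1, 53.2% for Hspa1l, 53.6% for Hspa2, 58.1% for Hspa1b and 58.9% for Hspa1a, around a median of 50% for all tested genes with a value. These values belong to the longest coding transcript, which for Hspa4l had 9479 bases. Its 1189 CPM and 333 FPKM in OV replicate 1 correspond to a much shorter length. The GC of the Hspa4l sequence that was counted may therefore differ from 39.5%. Relative to the median of the other 10 libraries, Hspa4l was at 1.22 times in OV replicate 3 and 1.21 times in 3NC replicate 2, and Hsph1 at 1.10 and 1.09 times. Hsp90aa1 was further up than the lower-GC Hspa4l, at 1.33 and 1.38 times. Most GC-rich members lay on the other side: Hspa2 was at 0.90 and 0.89 times, Dnajb1 at 0.85 and 0.90 times, and the sum of Hspa1a and Hspa1b at 0.62 and 0.73 times. Hspa8, also above the median GC, did not, at 1.02 and 1.30 times.

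**Figure D4:**
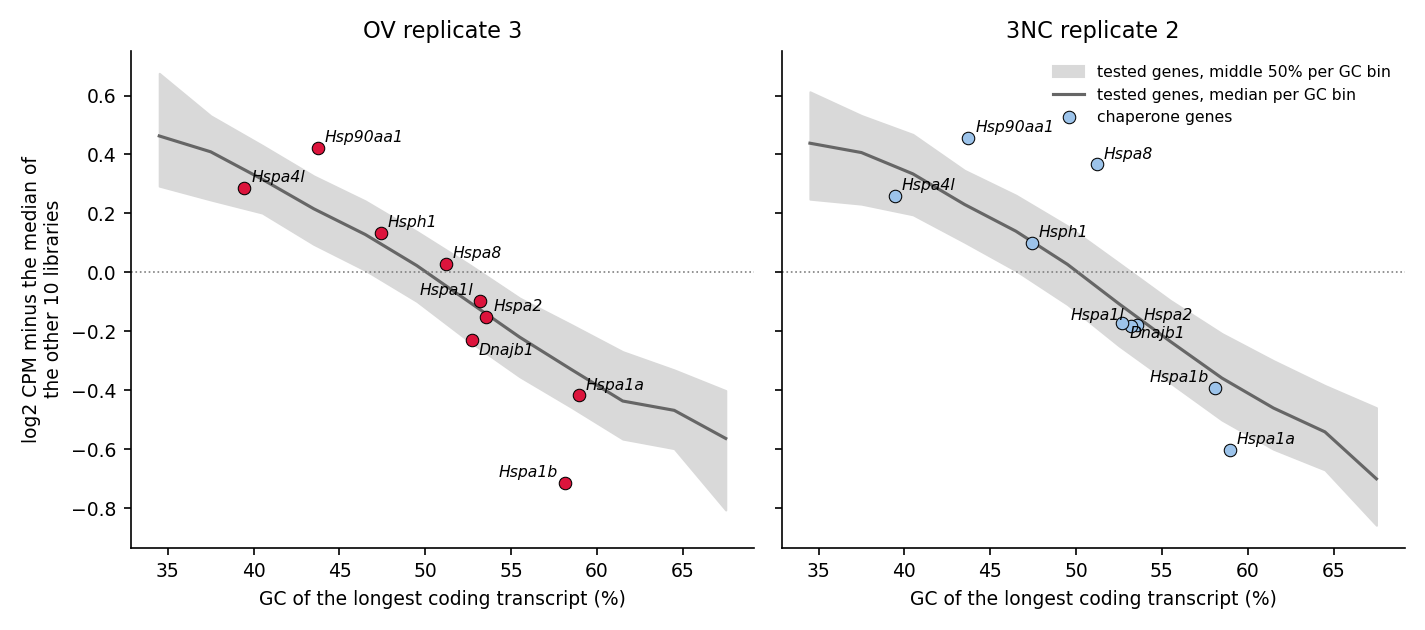
Difference in log2 CPM of OV replicate 3 (left) and 3NC replicate 2 (right) from the median of the other 10 libraries, against GC of the longest coding transcript in percent. Points are the 9 chaperone genes; the line is the median and the band the middle 50% of tested genes per GC bin. Hspa4l at 39.5% GC lies above 0 and Hspa1a at 58.9% GC below it in both libraries. Hsp90aa1 lies above the band in both libraries and Hspa8 above it in 3NC replicate 2. Hspa1b lies below the band in OV replicate 3, and Hspa1a below it in 3NC replicate 2.

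After a smooth of log2 CPM on transcript GC was removed from each library, a step chosen after the data were seen, 7 of 9 members lay within the range of the other 10 libraries in each of the 2. Hspa4l then stood at −0.06 in OV replicate 3 and −0.10 in 3NC replicate 2 on the log2 scale, relative to the median of the others, which ran from −0.20 to 0.06. Hspa2 stood at −0.01 and −0.03. Hsp90aa1 remained apart at 0.21 and 0.23, where the others ran from −0.07 to 0.04. Hspa8 in 3NC replicate 2 stood at 0.42, above the others at −0.14 to 0.23, and Hspa1b in OV replicate 3 at −0.39, below the others at −0.32 to 0.22. With this correction the log2 fold change for OV against 5NC was 0.11 for Hsp90aa1 and 0.03 for Hspa4l, and that of Hspa8 for KD against 3NC was −0.34 (adjusted p = 0.252).

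Correlations between members across the libraries depended in many pairs on OV replicate 3 and 3NC replicate 2. They are descriptions over libraries that share groups and base composition, and they are given over 12 libraries and again over 10, without the 2 that stood apart. Hspa2 and Hspa1l, the testis HSP70 forms, had a Pearson's r of 0.83 in log2 CPM over 12 libraries and 0.82 over 10. Hspa4l and Hsp90aa1 had 0.90 over 12 and 0.62 over 10, and Hspa1b and Dnajb1 had 0.90 and 0.74. Of 36 pairs, 16 differed in sign between 12 and 10 libraries. Hspa2 and Hsp90aa1 had −0.64 over 12 and 0.60 over 10, Hspa2 and Hspa4l −0.345 and 0.797, and Hspa1b and Hsp90aa1 −0.76 and 0.26. Hspa8 had a negative r with Hspa2 (−0.63 over 12 and −0.58 over 10) and with Dnajb1 (−0.595 and −0.705).

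Among 15213 other genes with a mean of at least 1 CPM, the gene most like Hspa1l was Odf2, a component of the outer dense fibres of the sperm tail, with r = 0.984 over 12 libraries and 0.991 over 10. It was followed by Habp4, Clmn, Entr1 and Cep295nl, at 0.953 to 0.946. The genes most like Hspa2 were Paqr9 (0.964), Spata21, Lpp, Arhgef2 and Atp8b3 (0.955). Those most like Hspa4l were Dcun1d1 (0.991), Rnf139, Eif5, Ranbp9 and Zfp654 (0.985). Dnajb1 was closest to Kat8 (0.966), a histone acetyltransferase, then Arsa, Klhdc3, Naif1 and Cstl1 (0.954). Hsph1 was closest to Zfp626 (0.947), then Tex14, which is needed for the bridges between germ cells, Jhy, Efl1 and LOC102635990 (0.915). The sum of Hspa1a and Hspa1b was closest to Psmg4 (0.928), a proteasome assembly factor, then Ccdc97, Arid3b, Setd1a and Mapk8ip3 (0.911). Over the 10 libraries r was 0.873 to 0.991 for the genes named so far beside single members, and 0.578 to 0.871 for the 5 genes closest to the sum. For Hsp90aa1 and Hspa8 the genes were looked up after their values were seen. Hsp90aa1 was closest to Matr3 (0.990), then Arhgap5, Cep70, Ube3a and Pkn2 (0.983), and over 10 libraries these had 0.729 to 0.920. Hspa8 was closest to Cd83 (0.954), then Creb3l2, Klf6, which is on the immediate early list, C3ar1, a complement receptor of leukocytes, and Pdlim5 (0.933), and over 10 libraries these had 0.927 to 0.948.

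The wider chaperone network gave no call either. Beside the 9 members, 146 genes of 9 chaperone and stress lists were in view, of which 139 were tested, and 0 were called in any of the 4 contrasts. The 8 other HSP70 and HSP110 genes had log2 fold changes of −0.09 to 0.18 for OV against 5NC and of −0.25 to 0.06 for KD against 3NC. The lowest of these was Hspa13, an HSP70-like protein of microsomes, at −0.25 ± 0.13 for KD against 3NC. Their medians were −0.01 and −0.07, beside −0.002 for all genes in both comparisons. The 3 other HSP90 genes ran from −0.09 to 0.16 for OV against 5NC, with Hsp90b1 of the endoplasmic reticulum at 0.16 ± 0.10.

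Of 44 J-domain genes, 29 had a positive value for OV against 5NC and 26 a negative one for KD against 3NC, with medians of 0.014 and −0.025. The smallest p for OV against 5NC belonged to Dnajc11, a J-domain protein of mitochondria, at −0.23 ± 0.09 (adjusted p = 0.427), and to Dnajb7, at 0.26 ± 0.11 (adjusted p = 0.444). Of 32 tested nucleotide exchange factors and other cochaperones, 16 were positive and 16 negative for OV against 5NC. There, Ptges3, the HSP90 cochaperone p23, had 0.23 ± 0.11, and for KD against 3NC the immunophilin Fkbp5 had −0.30 ± 0.11 and the ubiquitin ligase Stub1 had 0.27 ± 0.10. The adjusted p of these 3 was 0.483, 0.734 and 0.764.

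Of 7 tested heat shock factors and their binding proteins, 0 were called, and they ran from −0.23 to 0.21 for OV against 5NC and from −0.14 to 0.18 for KD against 3NC. Hsfy2, a heat shock factor-like gene, had 0.21 ± 0.11 for OV against 5NC. The 25 other heat-inducible genes had medians of −0.06 for OV against 5NC and −0.04 for KD against 3NC. The 8 tested small heat shock proteins had a median of −0.148 for OV against 5NC and of 0.135 for KD against 3NC. Among them the testis-specific Hspb9 had −0.22 ± 0.13 for OV against 5NC and 0.31 ± 0.13 for KD against 3NC (adjusted p = 0.541 and 0.764). The 12 chaperonin genes had medians of 0.09 and −0.05, and Cct6a, a subunit of the TRiC folding chamber, had −0.31 ± 0.09 for KD against 3NC (adjusted p = 0.554). Of 22 tested genes of endoplasmic reticulum stress, 0 were called. Xbp1, a transcription factor of the unfolded protein response, had −0.67 ± 0.22 for KD against 3NC (adjusted p = 0.594).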

How the data were processed

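RNA sequencing of mouse testis was analysed in 12 libraries, grouped by their titles. Expected counts, which the authors deposited unnormalised per the file headers, were rounded to whole numbers before tests. The second kind of deposited value was inferred to be FPKM, since over 5204 genes above 500 reads the value per read scaled inversely with depth (largest deviation 0.53%). The build was mm10, per the submitters' processing notes; aligner, counter, annotation and strandedness were not given. In the table, 18 per-sample columns were not used.

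Tests used edgeR 4.0.16 (R 4.3.3): robust quasi-likelihood fits of all 4 groups, TMM, filterByExpr (minimum count 10, minimum total 15), and Benjamini-Hochberg adjustment over 16320 genes, called under 0.05. The SE is the size of the fold change (log2) divided by the square root of F. Unadjusted p was counted under 0.05 too. The common biological coefficient of variation was 0.13. The fits were tested on simulated data.

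Members and lists were chosen with earlier results of these data known. Named beside the members are list genes of smallest p in OV against 5NC and KD against 3NC, fewer than the rule allows, and the 5 genes of highest Pearson correlation with a member. Of 289 listed symbols, 287 are in the table. Deviations from the group means of same-numbered OV and 5NC libraries (numbers from the titles) correlated at 0.165, 0.149 and 0.109 across genes, which met the rule for pairing (over 0.1). The other comparisons did not, with values between −0.034 and 0.056. Alternatives were other scalings, filters, DESeq2 1.42.0, limma 3.58.1 on log2 FPKM, the block, the other control group, libraries left out and a GC correction.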

Additional observations from a re-analysis of the deposited data

How the results depend on the processing

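Members called stayed at 0 of 9 in every comparison and setting run. The number of all genes called moved over 1.5 times in places. DESeq2 called 50 for OV against 5NC, 71 for KD against 3NC, 148 for 5NC against 3NC and 96 for the OV effect minus the KD effect. Limma on log2 FPKM called 32 for 5NC against 3NC with a pseudocount of 1, and with 0.1 it called 16 for KD against 3NC, 31 for 5NC against 3NC and 6 for the effect difference. Without a filter it called 1, 32 and 4 for OV against 5NC, 5NC against 3NC and the effect difference. The replicate block in fits of 2 groups alone called 215, 77 and 94 for OV against 5NC, KD against 3NC and 5NC against 3NC, and 83 for OV against 5NC with the GC correction as well; the block in the fit of all 4 groups stayed within 1.5 times. The block in the fit of all 4 groups called 0 for OV against 5NC, 22 for KD against 3NC, 50 for 5NC against 3NC and 13 for the effect difference. With any of these blocks, 0 members and 0 chaperone and stress list genes were called. Against the other control group, 52 (OV) and 8 (KD) were called, and against both controls averaged 3 and 3. Without OV replicate 3 and 3NC replicate 2, chosen after seeing the data, 36 were called for OV against 5NC and 18 for KD against 3NC. Leaving out 1 replicate gave 0 to 5 (without OV replicate 2) for OV against 5NC and 10 (without KD replicate 2 or 3) to 34 for KD against 3NC. It gave 16 (without 5NC replicate 3) to 76 for 5NC against 3NC and 4 (without KD replicate 3) to 23 (without OV replicate 2) for the effect difference. Other single libraries that moved these counts over 1.5 times were OV replicate 3 and 5NC replicate 1 for OV against 5NC, KD replicate 1 and 3NC replicates 1 and 2 for KD against 3NC, 5NC replicate 2 and each 3NC replicate for 5NC against 3NC, and OV replicate 3, 5NC replicate 3, KD replicates 1 and 2 and 3NC replicate 1 for the effect difference. Of the chaperone and stress lists, 1 gene, Atf4, was called under GC correction for 5NC against 3NC (adjusted p = 0.0136).

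Some log2 fold changes changed sign, among them the effect differences of 0.285 for Hspa4l and −0.239 for the summed pair and the KD value of −0.17 for Hsp90aa1. Under GC correction, KD against 3NC was −0.107 for Hspa1b and 0.0546 for Hspa4l, OV against 5NC was 0.0209 for Hspa8 (0.0242 with the block as well), 5NC against 3NC was −0.0848 for Hspa1a and −0.00351 for the summed pair, and the effect difference was 0.0398 for the pair and −0.0278 for Hspa4l. Against the other control, KD gave −0.0217 for Dnajb1, 0.0266 for Hsp90aa1, −0.152 for Hspa1b, 0.107 for Hspa4l and 0.0338 for Hsph1, and OV gave −0.0166 for Hspa1l. Against both controls, KD gave −0.0669 for Hspa1b and 0.0100 for Hspa4l. Hspa2 for 5NC against 3NC was 0.0077 with library totals only and 0.0036 by limma under each setting. Without OV replicate 3 and 3NC replicate 2, KD against 3NC was 0.00121 for Hsp90aa1, −0.107 for Hspa1b and −0.021 for Hspa1l, 5NC against 3NC was −0.191 for Hspa1a, and the effect difference was 0.0997 for the pair. Leaving out 1 replicate gave, for 5NC against 3NC, −0.191 to 0.319 for Hspa1a, −0.114 to 0.0583 for Hspa1l and −0.0777 to 0.0396 for Hspa2. For KD against 3NC it gave −0.254 to 0.00129 for Hsp90aa1, −0.184 to 0.122 for the pair, −0.107 to 0.145 for Hspa1b and −0.0209 to 0.112 for Hspa1l. For OV against 5NC it gave −0.0725 to 0.0981 for Hspa1l, −0.0261 to 0.0698 for Hspa2 and −0.112 to 0.0915 for Hspa8. The causes were not tested. With 3 libraries a group and at most 50.4 reads of Hspa1a in each, small changes of the inducible pair were not detectable.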

Other observations

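OV replicate 3 and 3NC replicate 2 also stood apart in the summed CPM of other chaperone groups. The 12 chaperonin genes, whose TRiC subunits fold actin and tubulin, summed to 5191 and 5236 CPM in these libraries, against 4604 to 4765 CPM in the other 10. The 8 other HSP70 and HSP110 genes summed to 1725 and 1790.4 CPM, against 1523 to 1660.1 CPM. The 11 small heat shock proteins lay on the other side, with 1523 and 1440.2 CPM against 1738 to 2099 CPM, as did the 33 nucleotide exchange factors and other cochaperones, with 4521 and 4479 CPM against 4778 to 5002 CPM. The 9 heat shock factors and their binding proteins were inside the range of the others, at 882 and 878 CPM against 874 to 917 CPM. The part of base composition in these sums was not tested.

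On the endoplasmic reticulum stress list, Atf4 and Asns had the smallest p between the control groups, and neither was called. Atf4, the transcription factor that integrated stress signalling induces, averaged 37.1 CPM in 5NC testes and 44.5 CPM in 3NC testes, with a log2 fold change of −0.29 ± 0.08 (adjusted p = 0.195). Its target Asns, asparagine synthetase, averaged 135 CPM in 5NC testes and 153 CPM in 3NC testes, with −0.21 ± 0.06 (adjusted p = 0.284). Ddit3, another target of Atf4 on that list, averaged 48.7 CPM in 5NC testes and 46.6 CPM in 3NC testes.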
